A study of Homo sapiens with 12 samples.

Results

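The 9 genes described here, taken by name, write, maintain or remove cytosine methylation: DNMT1, DNMT3A, DNMT3B, DNMT3L, UHRF1, TET1, TET2, TET3 and TDG. They are 9 of the 65969 gene identifiers in the table, and all 9 were among the 24898 genes kept by a filter on low counts. Total RNA was sequenced in 12 libraries of embryoid bodies, the aggregates in which pluripotent cells begin to differentiate, from H1 and MEL1, both established human embryonic stem cell lines. Every line carried a lentiviral short hairpin under doxycycline control, either against METTL14 (KD1, KD2 or KD3) or a control hairpin (SCR), and all 12 libraries, controls included, came from puromycin-selected cells kept for 10 days as aggregates of 500 cells per microwell with doxycycline at 2 µg/ml. H1 had 2 libraries each of SCR, KD1, KD2 and KD3, and MEL1 had 1 SCR, 2 KD1 and 1 KD2 library. The selected cells were populations and the labels name no clones. The labels do not say whether libraries of a group came from separate cultures, so p-values measure only the spread between these libraries, which may be technical.

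Cytosine methylation at CpG dinucleotides is set by DNMT3A and DNMT3B, helped by the catalytically inactive DNMT3L. It is copied at replication by DNMT1, which UHRF1 recruits to hemimethylated DNA. The TET dioxygenases oxidise methylcytosine, and the glycosylase TDG excises the more oxidised products so that base excision repair can restore cytosine. In human pluripotent cells DNMT3B and TET1 are known for high expression, and DNMT3B falls as such cells differentiate. METTL14 is a subunit of the enzyme that writes N6-methyladenosine on RNA. No DNA methylation was measured here, so every value below is a transcript level.

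Levels are given as CPM, in which each count is put relative to its library's TMM-scaled total, and comparisons as log2 fold changes with a standard error (SE). Calls were made at an adjusted p under 0.05 over all 24898 genes. The targeted gene, METTL14, was at 29.8 and 43.8 CPM with SCR and 8.89 to 17.7 CPM with the hairpins in H1, and in MEL1 at 49.9 CPM in the SCR library against 5.94 to 8.95 CPM in the knockdown libraries. Its levels with and without a targeting hairpin did not overlap in either line. The libraries held 36609628 to 43508287 estimated counts, except MEL1 SCR with 15963241. Libraries of one group also differed in how counts depended on GC content: over 10407 genes, the rank correlation of a gene's deviation with its GC content ran from -0.633 in MEL1 SCR to 0.612 in H1 KD1 replicate 2, and was 0.251 in one H1 SCR library and -0.487 in the other. Of the genes described here, TDG (39.5% GC), TET1 (41.0%) and TET2 (43.1%) lie under the median of 48.6% for tested genes, and the other 6 lie above it.

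Sequence upstream of the RefSeq start is shown for the TET genes and for DNMT1 and UHRF1, because TET2 and TET3, and DNMT1 and UHRF1, were the pairs of genes in the set that varied most closely together across libraries (values below). The RefSeq table on GRCh38.p14 matched 8 of the 9 genes, without DNMT3L, and the start nearest to the GENCODE 29 gene start was taken. It lies 36333 bases inside the gene for DNMT1, 17467 for DNMT3B and 6421 for UHRF1, and up to 1494 bases from the gene start for the other 5. Each line runs 5′ to 3′ on the gene's strand, ends at the base before the start, or earlier where an annotated exon begins, and has CpG dinucleotides in capitals.
TET1 at chr10:68560087-68560336, plus strand, between genes: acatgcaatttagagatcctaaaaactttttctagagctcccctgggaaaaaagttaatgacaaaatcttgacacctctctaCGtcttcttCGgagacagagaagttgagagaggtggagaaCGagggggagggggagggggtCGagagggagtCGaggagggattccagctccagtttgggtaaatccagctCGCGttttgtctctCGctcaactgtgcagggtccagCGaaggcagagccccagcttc
TET2 at chr4:105145625-105145874, plus strand, between genes: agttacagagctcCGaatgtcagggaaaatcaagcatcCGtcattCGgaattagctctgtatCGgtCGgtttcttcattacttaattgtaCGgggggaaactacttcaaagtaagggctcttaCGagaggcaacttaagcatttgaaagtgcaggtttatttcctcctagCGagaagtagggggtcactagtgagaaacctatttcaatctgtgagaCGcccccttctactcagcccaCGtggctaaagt
TET3 at chr2:73984660-73984909, plus strand, between genes: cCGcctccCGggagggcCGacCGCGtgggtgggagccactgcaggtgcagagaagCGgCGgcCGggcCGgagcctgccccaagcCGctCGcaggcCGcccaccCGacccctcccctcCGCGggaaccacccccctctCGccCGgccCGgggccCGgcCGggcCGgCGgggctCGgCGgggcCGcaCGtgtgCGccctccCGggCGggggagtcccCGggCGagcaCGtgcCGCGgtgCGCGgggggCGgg
UHRF1 at chr19:4909251-4909429, plus strand, within UHRF1 and outside its exons: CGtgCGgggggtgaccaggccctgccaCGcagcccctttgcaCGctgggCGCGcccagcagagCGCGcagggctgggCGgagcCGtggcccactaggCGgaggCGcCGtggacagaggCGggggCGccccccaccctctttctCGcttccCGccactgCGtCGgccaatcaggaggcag
DNMT1 at chr19:10195136-10195203, minus strand, within DNMT1 and outside its exons: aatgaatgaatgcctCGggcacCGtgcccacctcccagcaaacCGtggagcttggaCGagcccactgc
The 250 bases upstream held 9 CpG dinucleotides in TET1, 10 in TET2 and 37 in TET3, so TET2 and TET3 differ widely in this respect. They held 28 in UHRF1 and 21 in DNMT1, parts of which overlap exons and are not shown. Over all 35116 promoters in the table the median was 11. CpG content observed over that predicted from base composition was at least 0.6 in 5 of the 8 genes, DNMT3B with its distant start counted among the other 3, and in 47.5% of all promoters. An E2F-like motif (TTTCCCGC, TTTGGCGC, TTTCGCGC or TTTGCCGC on either strand) was found in 2.79% of all promoters and in 1 of the 8 genes, UHRF1, where its single match lies in the stretch that overlaps an exon. These letters are a description of the windows and were not tested as binding sites.

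The 9 genes spanned a wide range of abundance. Per kilobase of the longest annotated transcript, in CPM per kb, DNMT3B was highest in H1 at 54.4 ± 9.03 (SD, n = 8), followed by DNMT1 at 35.9 ± 3.41, TDG at 20.7 ± 3.13, UHRF1 at 16.6 ± 4.82 and DNMT3A at 15.3 ± 0.706. The TET genes came below, with TET1 at 6.51 ± 1.66, TET3 at 4.22 ± 0.358 and TET2 at 1.56 ± 0.359, and DNMT3L was near 0. Neighbours in this order that overlapped were TDG and UHRF1, UHRF1 and DNMT3A, and TET1 and TET3. In MEL1 the order was the same except that TET3, at 4.56 ± 1.34 (SD, n = 4), and TET1, at 4.40 ± 1.05, changed places within their spread. DNMT3B in MEL1 was at 233 ± 89.5 CPM per kb. The order depends on the transcript length taken, and which transcripts were expressed was not determined. In CPM, not divided by length, DNMT3B was still highest in H1 at a mean of 236. DNMT3A, at 145, then lay above UHRF1 (71.6) and TDG (67.3).

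**Figure D1:**
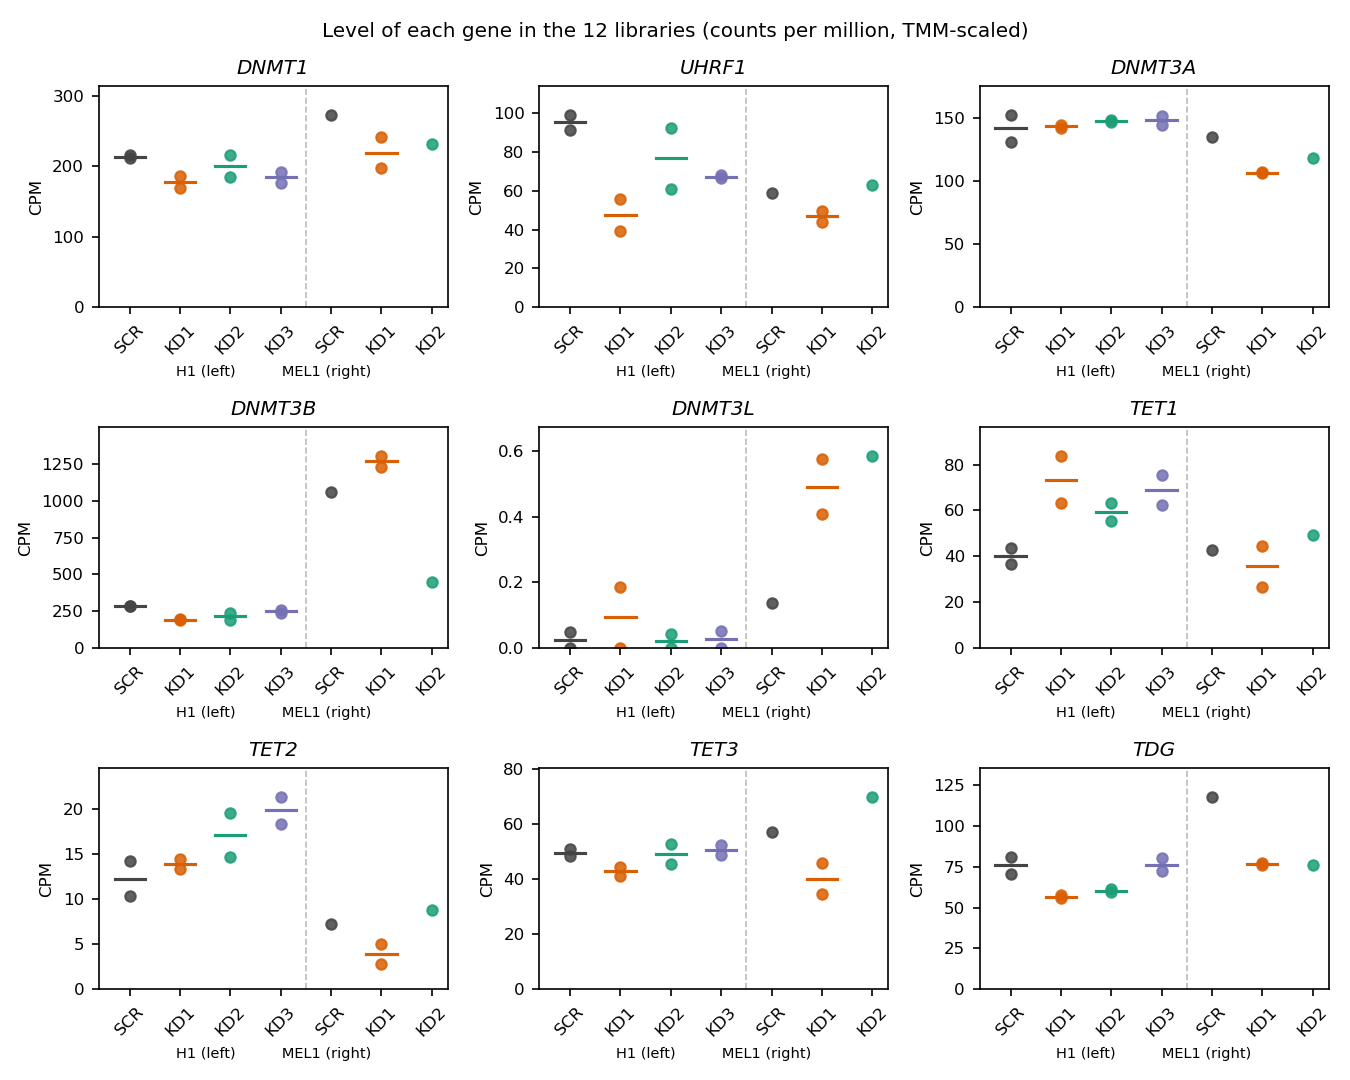
Level of each gene in CPM (vertical axis, starting at 0) in every library, by hairpin (horizontal axis), H1 left and MEL1 right of the dashed line; each point is 1 library and each bar the mean of a group of 2. DNMT3B sits at 448 to 1304 CPM in MEL1 and at 191 to 285 CPM in H1, and TET1 is higher in all 6 H1 knockdown libraries than in both H1 SCR libraries.

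Among the maintenance genes, UHRF1 fell in the average over METTL14 hairpins in H1, while the smaller difference in DNMT1 did not pass the test. UHRF1 (ENSG00000276043, chromosome 19, 4903080 to 4962154, plus strand) was at 91.3 and 99.0 CPM in H1 SCR, 39.3 and 55.7 CPM with KD1, 92.4 and 60.9 CPM with KD2, and 66.4 and 67.9 CPM with KD3. All 6 knockdown libraries were below the SCR mean, but the higher KD2 library lay between the SCR libraries, so the ranges overlapped. Averaged over the 3 hairpins the log2 fold change was -0.61 (SE 0.159, adjusted p = 0.0483), a fold of 0.657. Of all tested genes 7.16% were called in this comparison (4.93% lower and 2.23% higher), and of the 9 genes 2 were called, both lower. The average takes its spread from within groups, so differences between hairpins do not count in it. A fit of knockdown against SCR in the H1 libraries by themselves, where they do count, called 0 of the 9 genes. It called 175 of 22027 tested genes. UHRF1 was lowest with KD1, at -1.0 (SE 0.204, adjusted p = 0.0151). It was -0.31 with KD2 and -0.50 with KD3 (adjusted p = 0.491 and 0.211), and the hairpins were not shown to differ (adjusted p = 0.158 for UHRF1, 0.0429 with DESeq2 and 0.000416 without the filter on low counts). The average for UHRF1 sat at the threshold: leaving out a library kept the call in 4 of 12 cases (H1 KD1 replicate 2, H1 KD2 replicate 1, MEL1 KD2 or MEL1 SCR) and lost it in the others, with an adjusted p up to 0.258 without H1 SCR replicate 2. Without that library the number of all genes called went from 1783 to 123. The UHRF1 call with KD1 was lost without H1 KD1 replicate 1 (adjusted p = 0.115) or H1 SCR replicate 2 (0.0921). In MEL1, UHRF1 was at 59.0 CPM with SCR, 49.8 and 43.8 CPM with KD1 and 63.1 CPM with KD2, with no call.

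DNMT1 (ENSG00000130816, chromosome 19, 10133345 to 10231286, minus strand) was at 216 and 212 CPM in H1 SCR and 169 to 216 CPM in the 6 H1 knockdown libraries, of which 1, a KD2 library, lay between the SCR libraries. The average log2 fold change was -0.19 (SE 0.103, adjusted p = 0.293). In MEL1 it was at 273 CPM with SCR and 197 to 242 CPM in the 3 knockdown libraries (-0.28, SE 0.148, adjusted p = 0.304). Once a trend of counts on GC content and length was removed from each library, DNMT1 was called in both lines, at -0.29 in H1 (adjusted p = 0.0297) and -0.53 in MEL1 (adjusted p = 0.0269).

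Genes of DNA replication moved beside UHRF1 in H1. Of 15 S phase genes, such as the replicative helicase subunits MCM4 and MCM6 and the nucleotide synthesis enzymes RRM2 and TYMS, 8 fell and 0 rose in the H1 average, with a median log2 fold change of -0.45 against 0.01 for all tested genes. Their summed level was 2234 and 2353 CPM in H1 SCR and 1382 to 2095 CPM with the hairpins. Within KD2, whose libraries differed most in UHRF1, the library with 92.4 CPM of UHRF1 had a sum of 2095 CPM and that with 60.9 CPM a sum of 1730 CPM. In H1, KD1 had the lowest sums, 1382 and 1555 CPM, and the lowest UHRF1. The 2 markers MKI67 and TOP2A, which mark cycling cells, overlapped between H1 SCR (422.6 to 766.7 CPM summed) and knockdown (457.9 to 781.1 CPM). In MEL1 the sum and UHRF1 were not ordered alike: the KD2 library had the highest UHRF1 (63.1 CPM) and the lowest sum (1978 CPM), and the KD1 library with the lowest UHRF1 (43.8 CPM) had a sum of 2475 CPM. The part of replication genes in the UHRF1 result was not tested, and in such bulk RNA fewer cells of a type and less RNA per cell cannot be told apart.

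**Figure D2:**
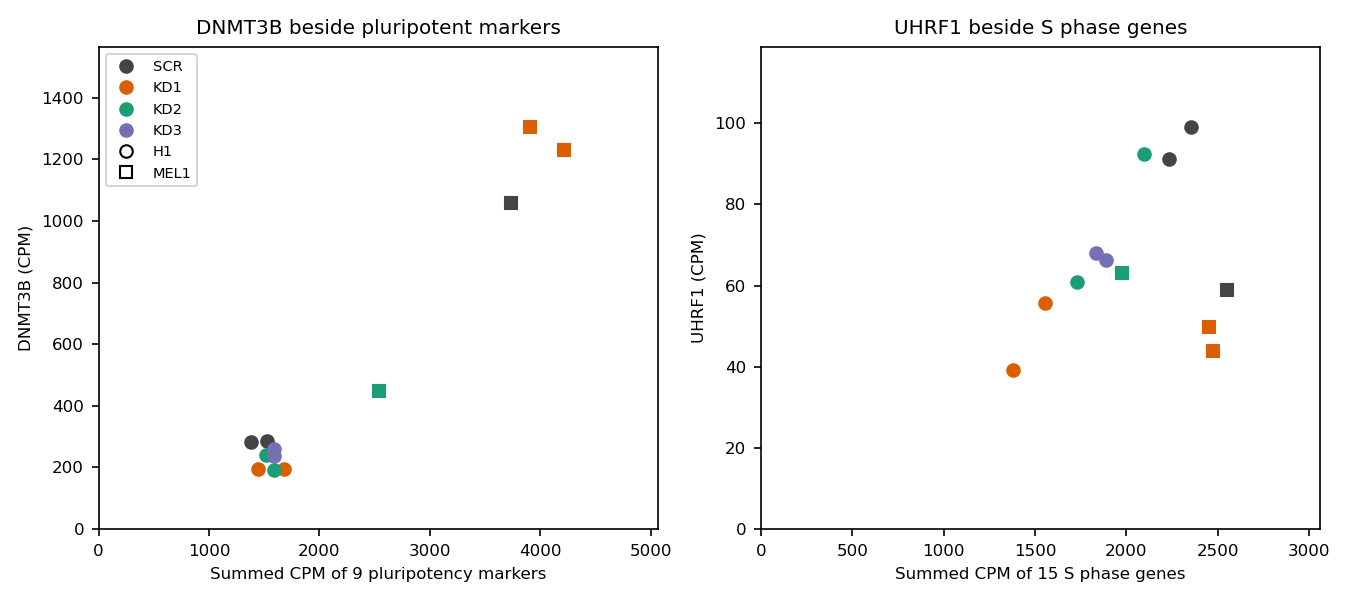
Left, DNMT3B (CPM) against the summed CPM of 9 pluripotency markers, of which LIN28A is the largest part in every library. Right, UHRF1 (CPM) against the summed CPM of 15 S phase genes. Each point is 1 library, circles H1 and squares MEL1, coloured by hairpin, with axes from 0; the MEL1 KD2 library lies at 448 CPM of DNMT3B and a marker sum of 2536 CPM, between H1 and the other MEL1 libraries, and among the H1 libraries those of KD1 are lowest in both UHRF1 and the S phase sum.

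Among the de novo enzymes, DNMT3B fell modestly in H1, DNMT3A stayed within its spread in H1, and DNMT3L was barely detected. DNMT3B (ENSG00000088305, chromosome 20, 32762385 to 32809356, plus strand) was at 285 and 283 CPM in H1 SCR, 195 and 194 CPM with KD1, 242 and 191 CPM with KD2, and 259 and 239 CPM with KD3. All 6 knockdown libraries were below both SCR libraries, which 11.7% of all tested genes also showed. The average log2 fold change was -0.38 (SE 0.102, adjusted p = 0.0491), a fold of 0.770. As for UHRF1, differences between hairpins do not count as spread in this average. By hairpin the log2 fold change was -0.55 with KD1 (SE 0.128, adjusted p = 0.022), -0.39 with KD2 (SE 0.128, adjusted p = 0.158) and -0.19 with KD3 (SE 0.127, adjusted p = 0.458), and the hairpins were not shown to differ (adjusted p = 0.252). Like UHRF1, the DNMT3B average sat at the threshold. Leaving out a library kept its call in 3 of 12 cases (H1 KD2 replicate 1, MEL1 KD2 or MEL1 SCR) and lost it in the others, with an adjusted p up to 0.233 without H1 SCR replicate 2. The DNMT3B call with KD1 was lost without either KD1 library (adjusted p = 0.144 and 0.117) or either H1 SCR library (0.0749 and 0.114).

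In MEL1, the hairpins went with unlike DNMT3B levels. It was at 1059 CPM with SCR, 1304 and 1229 CPM with KD1 and 448 CPM with KD2. The KD2 library was far below the other 3, and both KD1 libraries were above SCR. The comparisons of single MEL1 hairpins were added after seeing these values. DNMT3B with KD2 was at -1.24 against SCR (SE 0.182, adjusted p = 0.00979), where 3.88% of all genes were called, and at -1.50 against KD1 (SE 0.167, adjusted p = 0.000758), where 8.43% were. DNMT3B with KD1 against SCR was 0.26 (SE 0.157, adjusted p = 0.331), where 8.39% of all genes were called. The MEL1 average over KD1 and KD2 was -0.49 for DNMT3B (SE 0.146, adjusted p = 0.0795, and 0.00497 with DESeq2). Each MEL1 SCR and KD2 value is 1 library, assumed in the fit to vary like the other groups. The KD2 effect on DNMT3B was not shown to differ between MEL1 and H1 (difference -0.85, SE 0.221, adjusted p = 0.124, with 0.791% of all genes called), although this call was made with DESeq2 (adjusted p = 0.00293), without the filter on low counts (0.021) and with the GC trend removed (0.0259).

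The MEL1 KD2 library also stood apart in pluripotency genes. The stem cell factor POU5F1 was at 240 CPM in it, against 496 CPM with SCR and 798 and 879 CPM with KD1, and NANOG was at 32.8 CPM against 44.9, 77.0 and 81.9 CPM. Of 9 pluripotency markers 5 were lower and 0 higher in MEL1 KD2 than in KD1 (8.43% of all genes were called), and their sum was 2536 CPM against 3735 to 4219 CPM in the other MEL1 libraries. In the H1 average 3 of the 9 fell, POU5F1, NANOG and ZFP42, and 0 rose, with a median log2 fold change of 0.08 over the list. POU5F1 was at 58.6 and 62.2 CPM in H1 SCR and 21.3 to 36.7 CPM with the hairpins. NANOG was not lower with KD3, at 8.60 and 6.79 CPM against 7.05 and 6.12 CPM in SCR. ZFP42 was at 53.9 and 58.4 CPM in H1 SCR and 29.6 to 45.1 CPM with the hairpins. The sum of the 9 markers did not separate SCR (1378 and 1523 CPM) from knockdown (1441 to 1680 CPM). LIN28A, the largest part of that sum in every library, was at 827 and 934 CPM in H1 SCR and 892 to 1132 CPM with the hairpins. Of 7 neuroectoderm markers, 5 rose and 0 fell in the H1 average (7.16% of all genes were called). Their sum was 394.7 and 499.2 CPM in SCR and 605.4 to 763.9 CPM with knockdown. With KD1 by itself, 3 were called higher and 1 lower, where 11.1% of all genes were called. ZIC1 was at 14.8 and 18.4 CPM with KD1 against 34.4 and 32.4 CPM in SCR. SOX1 was at 11.9 and 17.2 CPM with KD1 against 23.5 and 23.7 CPM in SCR. The part of cell makeup in the DNMT3B differences was not tested.

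DNMT3A (ENSG00000119772, chromosome 2, 25227855 to 25342590, minus strand) was the steadiest of the genes in H1, at 131 and 153 CPM in SCR and 142 to 152 CPM in the knockdown libraries, all of which lay between the SCR values. Its average log2 fold change was 0.05 (95% interval -0.121 to 0.213, adjusted p = 0.804). In MEL1 it was at 135 CPM with SCR, 107 and 106 CPM with KD1 and 118 CPM with KD2 (-0.27, SE 0.122, adjusted p = 0.226). DNMT3L (ENSG00000142182, chromosome 21, 44246339 to 44262216, minus strand) had 14 counts over the 8 H1 libraries, 0 in 4 of them and under 3 in 7, and 64 counts over the 4 MEL1 libraries (2 with SCR, 16 and 20 with KD1, 26 with KD2). A count of 0 allows up to 0.0692 to 0.0769 CPM in the H1 libraries concerned. Libraries were stranded, but whether counting used strand is not given in the sources used here, and the antisense gene DNMT3L-AS1 had up to 10 counts in a library.

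TET1 levels lay above control in all 6 H1 knockdown libraries, with an average just short of the threshold, while in MEL1 the control lay within the knockdown range. TET1 (ENSG00000138336, chromosome 10, 68560656 to 68694482, plus strand) was at 36.8 and 43.8 CPM in H1 SCR, 83.8 and 63.1 CPM with KD1, 55.3 and 63.2 CPM with KD2, and 62.3 and 75.6 CPM with KD3. All 6 knockdown libraries were above both SCR libraries, as for 8.61% of all tested genes. The average log2 fold change of 0.73 (SE 0.198), a fold of 1.66, missed the threshold at an adjusted p of 0.0553. It was called in 10 of 20 alternative fits, among them DESeq2 (adjusted p = 0.00148), the GC trend removed (0.0139) and H1 libraries by themselves (0.0174), and lay at 0.187 and 0.224 without either H1 SCR library. The fit of H1 libraries by themselves named here was of group means. Where differences between hairpins counted as spread, the H1 libraries by themselves gave 0 of the 9 genes called. With KD1 by itself, TET1 rose by 0.87 (SE 0.233, adjusted p = 0.0432), with 11.1% of all genes called and 4 of the 9 genes. This call was lost without any 1 of the 8 H1 libraries (adjusted p from 0.054 to 0.215). The values for TET1 were 0.56 with KD2 (adjusted p = 0.279) and 0.77 with KD3 (adjusted p = 0.108), and the hairpins were not shown to differ (adjusted p = 0.67).

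In MEL1, TET1 was at 42.8 CPM with SCR, 44.7 and 26.8 CPM with KD1 and 49.4 CPM with KD2, so the SCR library lay within the knockdown range. The log2 fold change was -0.03 (SE 0.279, 95% interval -0.573 to 0.52). The mean effect of KD1 and KD2 on TET1 had a log2 difference of -0.74, MEL1 minus H1 (SE 0.341, adjusted p = 0.306), which does not show that the lines differ. Of all tested genes 0.598% were called in that comparison and 0 of the 9 genes. At an unadjusted p under 0.05 it held 0 of the 9 genes and 4282 of all genes, and the fit without the filter on low counts called TET1 (adjusted p = 0.0394), while DESeq2 did not (0.155).

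TET2 (ENSG00000168769, chromosome 4, 105145875 to 105279816, plus strand) was at 10.4 and 14.3 CPM in H1 SCR, 14.5 and 13.4 CPM with KD1, 19.6 and 14.7 CPM with KD2, and 18.4 and 21.4 CPM with KD3. The knockdown libraries were all above the SCR mean, yet their range overlapped that of SCR, and the average of 0.45 (SE 0.212, adjusted p = 0.234) did not pass the test. TET3 (ENSG00000187605, chromosome 2, 73986404 to 74108176, plus strand) was at 48.6 and 51.0 CPM in H1 SCR and 41.3 to 52.7 CPM with the hairpins, an average of -0.07 (95% interval -0.3 to 0.162, adjusted p = 0.784). In MEL1 both split by hairpin. TET2 was at 7.22 CPM with SCR, 4.99 and 2.84 CPM with KD1 and 8.82 CPM with KD2, and TET3 at 57.3 CPM with SCR, 45.8 and 34.6 CPM with KD1 and 70.0 CPM with KD2. Against KD1, the KD2 library was higher by 1.17 in TET2 (SE 0.314, adjusted p = 0.0449) and by 0.80 in TET3 (SE 0.173, adjusted p = 0.0193). Without MEL1 KD1 replicate 2, which had the lower values, TET2 was at 0.82 (adjusted p = 0.19) and TET3 at 0.61 (adjusted p = 0.0927). The TET2 call was also lost without H1 KD1 replicate 1 or 2, H1 KD2 replicate 1, or H1 KD3 replicate 1 or 2 (adjusted p from 0.0503 to 0.0732), and with a non-robust fit (0.0518). Beside these, the GC correlation was 0.412 and 0.441 in the MEL1 KD1 libraries and -0.0189 in KD2; with the GC trend removed TET2 and TET3 in MEL1 KD2 against KD1 were 0.77 (adjusted p = 0.0342) and 0.49 (adjusted p = 0.021).

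**Figure D3:**
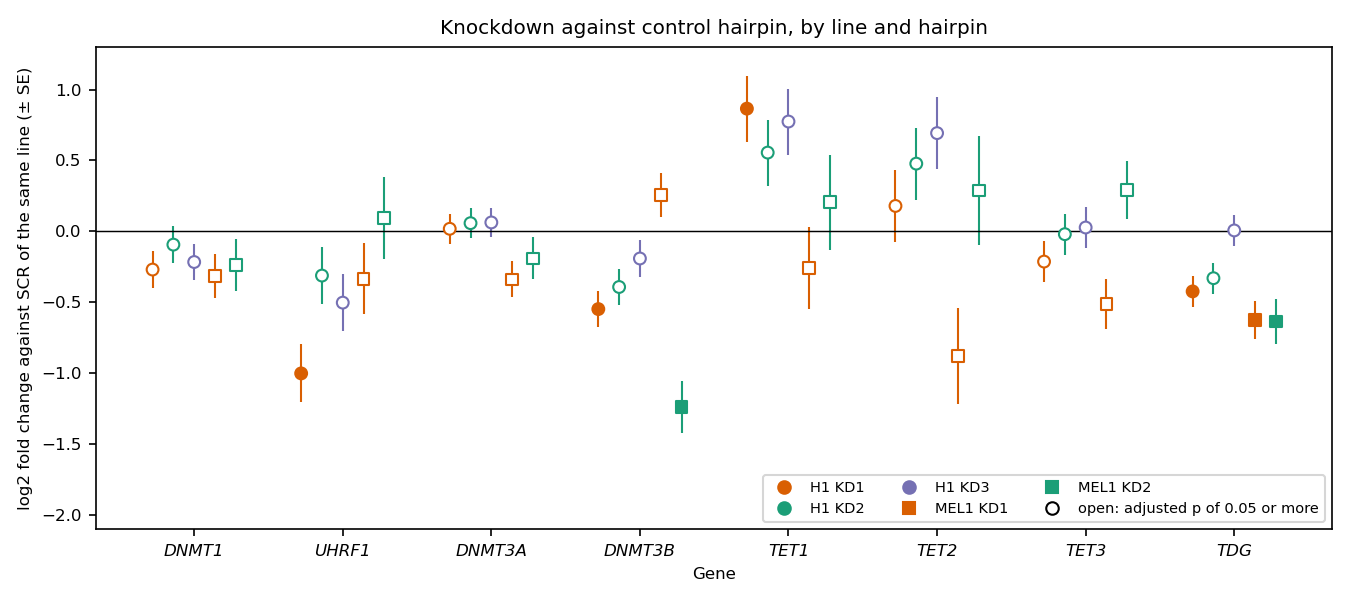
Log2 fold change against SCR of the same line (vertical axis, bars ± SE) for 8 genes (horizontal axis) and 5 line and hairpin combinations, circles H1 and squares MEL1; filled symbols have an adjusted p under 0.05. TET1 lies at 0.56 to 0.87 in H1, TDG at -0.62 and -0.64 in MEL1, and DNMT3B at -1.24 with KD2 in MEL1.

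TDG fell with knockdown in MEL1 and with KD1 in H1. TDG (ENSG00000139372, chromosome 12, 103965804 to 103988874, plus strand) was at 118 CPM in MEL1 SCR, 77.1 and 75.8 CPM with KD1 and 75.8 CPM with KD2. The 3 knockdown libraries lay close together and below SCR, which 25.7% of all tested genes also showed in this comparison with 1 control library. The MEL1 average for TDG was -0.63 (SE 0.126, adjusted p = 0.0267), where 4.45% of all genes and 1 of the 9 genes were called, and it was called in all 17 alternative fits of TDG that could be made. By hairpin, TDG in MEL1 was -0.62 with KD1 (adjusted p = 0.0206) and -0.64 with KD2 (adjusted p = 0.0495). The KD1 call was lost without MEL1 KD1 replicate 2 (adjusted p = 0.0754), and the KD2 call without MEL1 KD1 replicate 2 or any 1 of the 6 H1 knockdown libraries (0.0509 to 0.0833) and with a non-robust fit (0.0571). The MEL1 SCR library is also the shallowest and the lowest in its GC correlation. Every alternative fit of the MEL1 average holds this library, so the fits cannot show how far TDG depends on it. With the GC trend removed the average for TDG was -0.54 (adjusted p = 0.014).

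In H1, TDG was at 70.8 and 81.2 CPM with SCR, 57.5 and 55.8 CPM with KD1, 61.1 and 59.8 CPM with KD2, and 72.2 and 80.4 CPM with KD3. The KD1 and KD2 libraries lay below both SCR libraries and the KD3 libraries between them. KD1 was called for TDG at -0.42 (SE 0.11, adjusted p = 0.0335), but not without H1 KD1 replicate 1 or 2 (adjusted p = 0.171 and 0.166), H1 KD2 replicate 2 (0.05) or H1 SCR replicate 2 (0.223), nor with the GC trend removed (-0.25, adjusted p = 0.0648). The KD1 call for TDG was also lost with upper-quartile scaling. KD2 was -0.33 (adjusted p = 0.168) and KD3 was 0.01 (95% interval -0.209 to 0.222). The test for TDG between the 3 hairpins gave an adjusted p of 0.0876 (0.015 with DESeq2), and 3.54% of all genes and 0 of the 9 genes were called there by edgeR. TDG and UHRF1 had an unadjusted p under 0.05 in that test, as did 4978 of the 24898 genes, and both were called by DESeq2.

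Over both lines at once, with cell line as a covariate, 0.213% of all tested genes and 0 of the 9 genes were called by edgeR. DESeq2 called 1246 of the 24898 genes and also 0 of the 9. Of the 9, 4 had an unadjusted p under 0.05 with edgeR, as did 15.7% of all genes: TDG (-0.37, adjusted p = 0.172), UHRF1 (-0.45, 0.264), DNMT1 (-0.22, 0.287) and TET1 (0.44, 0.305). TDG, UHRF1 and DNMT1 were each below the SCR mean of their line in 8 of 9 knockdown libraries, and TET1 was above it in 8 of 9. The share of all genes with such counts was not worked out, so they are a description only. The 3 MEL1 knockdown libraries share 1 SCR library, and for 25.7% of all genes all 3 lay below it. A fit of group means that weights the lines equally called 2, DNMT3B (-0.43, adjusted p = 0.0151) and TDG (-0.44, adjusted p = 0.00876), where it called 9.95% of all genes. With edgeR, KD2 and KD3 in H1 called 0 of the 9 genes each, where 1.54% and 2.98% of all genes were called. DESeq2 called 1 in each, DNMT3B with KD2 (adjusted p = 0.0392) and TET1 with KD3 (adjusted p = 0.0116). Of the 24898 genes, DESeq2 called 1149 with KD2 and 1675 with KD3. At an unadjusted p under 0.05, the edgeR test held 3 of the 9 with KD2 (DNMT3B, TDG, TET1) and 3 with KD3 (TET1, TET2, UHRF1), beside 16.1% and 19.0% of all genes.

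**Figure D4:**
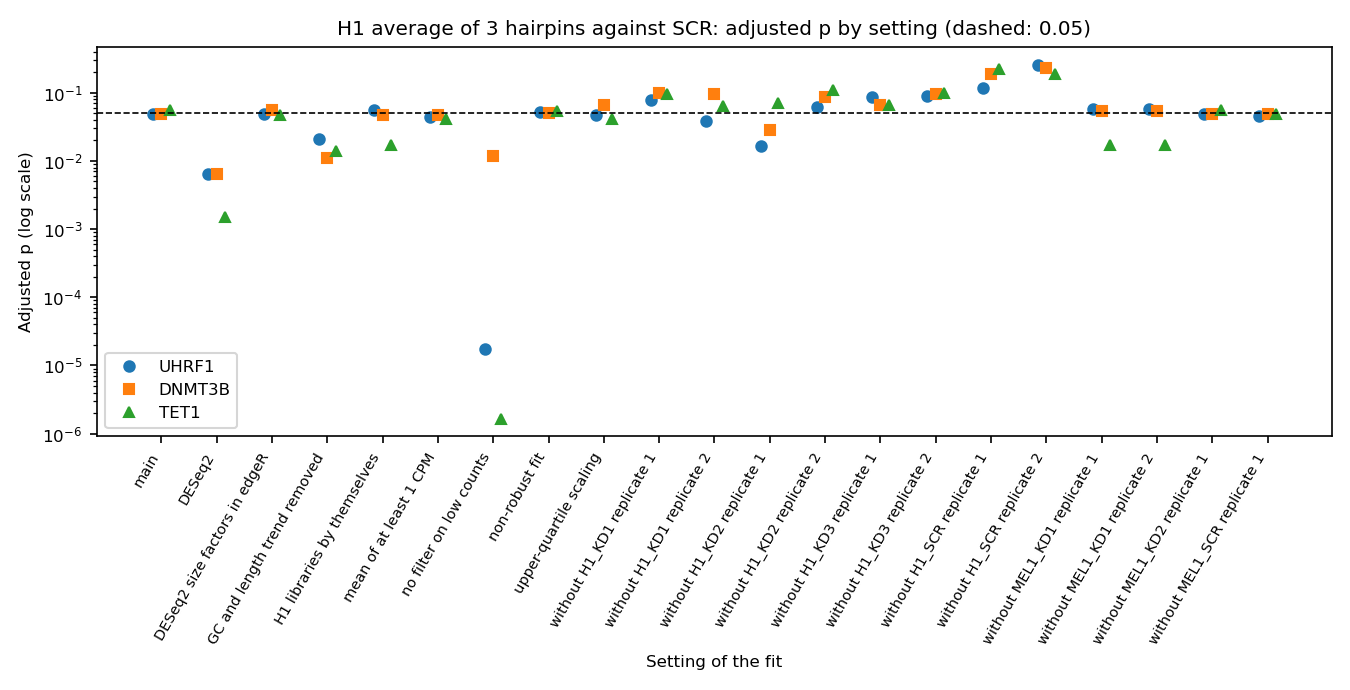
Adjusted p (vertical axis, log scale) of UHRF1, DNMT3B and TET1 for the H1 average of 3 hairpins against SCR, in the fit as reported (left) and in 20 alternative fits (horizontal axis); the dashed line is 0.05. All 3 genes lie within 0.0483 to 0.0553 as reported and cross the line in both directions among the alternatives.

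Between the lines, DNMT3B differed most of the 8 genes other than DNMT3L. At matched hairpins DNMT3B was 3.69-fold higher in MEL1 than in H1 (log2 1.88, SE 0.0824, adjusted p = 1.7e-08), and all 4 MEL1 libraries (448 to 1304 CPM) were above all 8 H1 libraries (191 to 285 CPM), as for 12.3% of all genes. The 2 lines differed widely, with 49.1% of all tested genes called, and 6 of the 9 genes were, DNMT3L among them. DNMT1 (0.29, adjusted p = 0.0148) and TDG (0.46, adjusted p = 0.00029) were also higher in MEL1. DNMT3L was called higher too (adjusted p = 0.0394, on the counts above). With at most 8 counts in an H1 library, DNMT3L passed the filter on low counts only through MEL1 libraries. Its call therefore rests on the values that let it in and is given as a description. TET2 was lower in MEL1 (log2 -1.19, SE 0.183, adjusted p = 0.000276), with all 4 MEL1 libraries (2.84 to 8.82 CPM) below all 8 H1 libraries (10.4 to 21.4 CPM), as for 13.0% of all genes. DNMT3A was lower (log2 -0.27, adjusted p = 0.00762), but stood at -0.09 with the GC trend removed (adjusted p = 0.318). The DNMT3L call was lost without H1 KD2 replicate 2, H1 SCR replicate 1 or either MEL1 KD1 library (adjusted p from 0.0552 to 0.0698). TET1 (-0.40, adjusted p = 0.0579), UHRF1 (-0.33, adjusted p = 0.0689) and TET3 (0.21, adjusted p = 0.0977) were not called.

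The balance of the de novo enzyme transcripts differed accordingly. DNMT3B over DNMT3A, per kilobase, ran from 2.81 to 4.73 in H1 (median 3.54) and was 17.2 in MEL1 SCR, 26.6 and 25.3 with KD1 and 8.29 with KD2. Every MEL1 ratio was above every H1 ratio, and the MEL1 KD2 ratio was nearest to H1. The size of these ratios depends on the lengths taken, 4336 bases for DNMT3B and 9501 for DNMT3A. The same lengths were used in every library. The labels call all cells hESC, and at day 10 markers of the undifferentiated state were far higher in MEL1, with 8 of 9 higher and 1, SALL4, lower, and a sum of 2536 to 4219 CPM against 1378 to 1680 CPM in H1. Of 7 neuroectoderm markers 7 were lower in MEL1, where their sum was 87.5 to 131.4 CPM against 394.7 to 763.9 CPM, and PAX6 was at 0.204 to 2.92 CPM against 95.8 to 224.2 CPM. Most of the MEL1 sum was OTX2, at 73.0 to 125 CPM against 112 to 193 CPM in H1. Line and differentiation state cannot be told apart in these libraries.

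Around these enzymes, genes of 4 lists were called in the H1 average, in which 7.16% of all tested genes were. Of 13 tested maintenance and DNMT partners, 2 fell and 0 rose: PCNA, the replication clamp that also binds DNMT1, at -0.68 (SE 0.111, adjusted p = 0.00819), and CDCA7, a partner of the remodeller HELLS, at -0.57 (SE 0.128, adjusted p = 0.0246). PCNA was at 246 and 258 CPM in H1 SCR, 103 and 116 CPM with KD1, 211 and 163 CPM with KD2 and 182 and 196 CPM with KD3, so its KD2 libraries were ordered as those of UHRF1. Of 10 repair genes that act after or beside TDG, 3 fell, namely the glycosylases UNG (-0.57, adjusted p = 0.0125) and NEIL3 (-0.64, adjusted p = 0.0335) and the polymerase POLB (-0.42, adjusted p = 0.0403), and 1 rose, the glycosylase NEIL1 (0.79, adjusted p = 0.0329). Of 9 TET cofactors and partners 2 fell and 1 rose. Those that fell were IDH1, which makes the oxoglutarate that TET enzymes use (-0.65, adjusted p = 0.00729), and CXXC5 (-0.46, adjusted p = 0.0163); OGA, which removes O-GlcNAc, rose (0.45, adjusted p = 0.0323). Of 9 methyl donor genes 1 fell, MTHFD1 of folate metabolism (-0.42, adjusted p = 0.0285).

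Among germline genes that promoter methylation is known to silence, those with enough counts to test were few. Of 11 such genes, 4 passed the filter on low counts and the other 7 were not tested. Of the 4, 1 fell and 0 rose in the H1 average. The 1 that fell was DAZL, an RNA-binding protein of germ cells, at 1.74 and 2.27 CPM in H1 SCR and 0.507 to 1.1 CPM with the hairpins (-1.19, SE 0.283, adjusted p = 0.0314). The summed level of all 11 genes, DAZL and the untested ones included, was 3.54 and 4.88 CPM in H1 SCR and 2.51 to 3.63 CPM with the hairpins.

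Across the 12 libraries, each centred on the mean of its line, the genes of the set varied together in some pairs. TET2 and TET3 had a Pearson r of 0.839 (Spearman rho 0.811) and DNMT1 and UHRF1 an r of 0.781 (rho 0.734). TET1 went with TET2 (r 0.685, rho 0.517) but less closely with TET3 (r 0.32, rho 0.014). DNMT3B ran opposite to TET1 (r -0.544, rho -0.58), TET2 (r -0.523, rho -0.552) and TET3 (r -0.506, rho -0.266). By rank, UHRF1 also went with TET3 (r 0.559, rho 0.727) and TDG (r 0.493, rho 0.706). These are descriptions over libraries that share depth and GC trends, and no p is given. Of 10410 genes averaging 10 CPM or more, the most similar to each gene were NUP98 (r 0.942) and POLE (0.936) for DNMT1, ACAD9 (0.968) and NCOA5 (0.958) for UHRF1, and RRS1 (0.975) and UPRT (0.967) for DNMT3B. For the TET genes they were SETD5 (0.971) and HELZ (0.954) for TET1, GOLIM4 (0.981) and PTPRD (0.975) for TET2, and SRGAP2 (0.977) and KIF3B (0.976) for TET3. NADK2 (0.982) and STRBP (0.968) were nearest to TDG, and BMS1P20 (0.911) and SAFB (0.875) to DNMT3A. DNMT3A thus had the lowest best match of the 8 genes with adequate counts. For DNMT3L, at these counts, no reading is given.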

How the data were processed

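Estimated counts per Ensembl gene were deposited by the authors for 12 libraries. Per the submitters' processing notes, fastp and kallisto were used; versions, genome build and strand setting are not given in the sources used here. Estimated counts split reads between similar genes, so paralogs, overlapping genes and antisense genes are uncertain. Counts were rounded to whole numbers, filtered with filterByExpr over the 7 groups (24898 of 65969 genes), scaled by TMM and tested with robust quasi-likelihood F-tests in edgeR 4.0.16 (R 4.3.3, limma 3.58.1), with Benjamini-Hochberg adjustment over all tested genes. The SE was derived from the log2 fold change and its F statistic (absolute value over root F), and intervals are 1.96 SE.

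The fit over both lines had line as covariate, so differences between hairpins count as spread in it. The other comparisons were contrasts of 7 group means over all 12 libraries, where only differences within groups do. DESeq2 1.42.0, other scalings, filters, a non-robust fit, group means, removal of a spline trend on GC content and length (5 and 4 degrees of freedom; 90.6% of tested genes had both) and leaving out each library were alternatives. The genes and lists were chosen with earlier results of these data known. Named genes were the 9 genes and METTL14, list genes called over both lines or in the H1 average, and for each gene the 2 with the most similar centred log2 CPM (prior count 2). Other names, such as SALL4, PAX6 and MCM4, serve as examples chosen after their values were seen. Per-kilobase levels and coordinates use GENCODE 29 on GRCh38, and promoters use RefSeq on GRCh38.p14.

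Replicates are numbered only to name libraries. Pairs of libraries of 1 group differed by 22.8 to 34.3 chi-square per degree of freedom, far more than sampling noise. Floors of 3 counts cover counting error only. On simulated data (200 of 23673 genes changed by a log2 of 2), 94.0% were recovered in the H1 average (6.93% of calls false). In the MEL1 average 81.5% were recovered (8.43% of calls false). No smaller change was simulated. The simulated data held no GC trend and no differences between lines or between hairpins, so their rates of false calls may not hold for these libraries. The log2 fold changes in the H1 average were -0.61 for UHRF1, -0.38 for DNMT3B and 0.73 for TET1. That of TDG in the MEL1 average was -0.63. The simulated rates therefore do not give the recovery of changes of this size. The counts over the list of methyl-CpG readers are not reported here.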

Additional observations from a re-analysis of the deposited data

Results flagged for a closer look

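In the MEL1 KD2 library against the 2 MEL1 KD1 libraries, DNMT3B was lower (log2 -1.50), while TET2 was higher by 1.17 and TET3 by 0.80. The comparison was added after seeing the values, and KD2 is 1 library, so hairpin and library cannot be told apart. The TET2 and TET3 calls were lost without MEL1 KD1 replicate 2 (adjusted p = 0.19 and 0.0927), and the differences were 0.77 and 0.49 with the GC trend removed. DNMT3B was at -1.6 with the GC trend removed and stayed called without any 1 library that could be left out (adjusted p up to 0.00472).

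DNMT3L in H1 KD1 replicate 2 lay apart from the other 5 H1 knockdown libraries: its gap to the nearest, divided by the range of all 6, was 0.713. The value rests on 8 counts against 0 to 2 in the others. Chance marks about 1 in 20 such groups, and 9 genes were examined.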

How the results depend on the processing

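Directions held for every gene called in the H1, MEL1 and line comparisons under all alternatives run, but calls among the 9 genes did not. Over both lines the count rose from 0 to 2 with a fit of group means. In the H1 average it went from 2 to 0 with a non-robust fit, to 5 with the GC and length trend removed, and ranged from 0 to 3 when a library was left out. With H1 KD1 it ranged from 0 to 4 when a library was left out, against 4 as reported. With H1 KD2 it was 1 without a filter on low counts, 1 with DESeq2 and 2 with the GC trend removed, against 0. With H1 KD3 it was 3 without the filter, 1 with DESeq2 and 0 to 1 when a library was left out, against 0. In the MEL1 average it was 2 without the filter, 2 with DESeq2 and 3 with the GC trend removed, against 1. The difference of effect between lines gave 1 without the filter, and the difference between H1 hairpins 1 without the filter and 2 with DESeq2, both against 0. All-gene calls moved too, with 40154 genes tested without the filter. H1 KD2 had 1745 without the filter, 1149 with DESeq2 and 1194 with the GC trend removed, against 384. H1 KD3 had 2290 without the filter and 1675 with DESeq2, against 741. In these fits the MEL1 average had 2703, 2107 and 896 (GC trend removed), against 1107. The H1 hairpin test had 3384 and 2224, against 881. The difference between lines had 1369 without the filter, against 149. The cause of these moves was not tested.

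Over all genes, the H1 average called 1783 of those tested as reported, 3256 without the filter, 2696 with DESeq2, 3320 with the GC trend removed, and between 123 (without H1 SCR replicate 2) and 1842 when a library was left out. No paired analysis was possible because the labels carry no replicate numbers. Depth limits DNMT3L most, which had under 3 counts in 7 of 8 H1 libraries. The MEL1 comparisons rest on 1 SCR library of 15963241 counts.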

Other observations

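In the MEL1 average of KD1 and KD2 against SCR, 4.45% of all genes were called. SUV39H1, a histone methyltransferase, rose by 0.80 (SE 0.18, adjusted p = 0.0345), the only call among 13 maintenance and DNMT partners. None of the 10 repair genes, 9 methyl donor genes and 9 TET cofactors and partners was called there. SUV39H1 was chosen after its values were seen.

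The MEL1 KD2 library differed from MEL1 KD1 in the methyl donor cycle, where 3 of 9 genes were lower and 8.43% of all genes were called: AHCY, which clears S-adenosylhomocysteine (-0.72, adjusted p = 0.033), and the mitochondrial folate enzymes SHMT2 (-0.75, adjusted p = 0.0238) and MTHFD2 (-1.0, adjusted p = 0.00782). IDH1 was lower (-0.74, adjusted p = 0.0216) and CXXC4 higher by 1.58 (adjusted p = 0.0097). AHCY with KD2 (289 CPM) was near its level in MEL1 SCR (293 CPM), and KD1 was higher (459 and 496 CPM). SHMT2 and MTHFD2 with KD2 (84.8 and 60.2 CPM) were below MEL1 SCR (112 and 132 CPM). KD2 is 1 library in MEL1, against 2 of KD1. The GC correlation was 0.412 and 0.441 in these KD1 libraries and -0.0189 in KD2, and its part in these differences was not tested.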
